A study of Arabidopsis thaliana with 12 samples.

Results

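SBPASE and PRK encode a pair of enzymes of the Calvin cycle, and their transcripts were followed here in the Arabidopsis thaliana mutant mak3 and in wild-type (WT) plants. Each gene was represented by 1 probe that names no other gene, probe 1517 for SBPASE (AT3G55800) and probe 3151 for PRK (AT1G32060), chosen by gene name among the 3439 probes of the array and not by their values. All plants were of the ecotype Columbia 0, and by the labels mak3 carries a defect in an N-acetyltransferase of the cytoplasm. Such enzymes acetylate the N-termini of newly made proteins, and the mutant was set against WT to find transcripts whose levels depend on one of them. Total RNA was read on 12 arrays, 6 of mak3 and 6 of WT. The sources used here name neither the mak3 allele nor the tissue sampled or how the plants were grown. The transcript of MAK3 was not analysed here, so the genotype labels were taken as they stand.

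The Calvin cycle is the set of reactions in the chloroplast stroma by which plants fix CO2 into sugar phosphates with the ATP and NADPH of the light reactions. Sedoheptulose-1,7-bisphosphatase, the product of SBPASE, removes a phosphate from sedoheptulose bisphosphate and so commits carbon to the regeneration of the CO2 acceptor. Phosphoribulokinase, the product of PRK, makes that acceptor, ribulose bisphosphate, from ribulose phosphate. Both enzymes are encoded in the nucleus, act only in this cycle, and are switched on in the light when thioredoxins reduce their disulfide bonds.

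The values are hybridization intensities in arbitrary units, with an array mean between 0.946 and 1.05 and an array median between 0.420 and 0.605. Within a genotype, arrays 1-2, 3-4 and 5-6 behaved as pairs. Their deviations from the mean of the 6 arrays correlated at r = 0.758 to 0.883 across probes. Between arrays of different pairs r was at most -0.0645, but taking off that mean pushes these values below 0. The pairing thus rests on the high r within pairs. Each such pair was therefore averaged and counted as 1 sample, which gives 3 samples of mak3 and 3 of WT. Nothing in the labels says that these samples came from separate plants, so p-values measure only the spread between them, which may be technical. In bulk RNA, fewer cells of a type and less RNA per cell cannot be told apart.

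For neither gene did the difference between mak3 and WT exceed the spread between samples. SBPASE was slightly lower in mak3 on average, but without the WT sample of pair 1-2 its difference was -0.002 on the log2 scale. PRK was level on average, which joined 1 pair in which it was lower in mak3 and 2 pairs in which it was higher. SBPASE had nearly the same normalized level in all 3 mak3 samples, whereas the mak3 samples spanned 1.14 on the log2 scale for PRK.

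The deposited signal of SBPASE was lower in mak3 at every array number. On mak3 arrays it ran from 0.602 to 0.943 with a median of 0.717, against 0.816 to 1.04 with a median of 0.839 on WT arrays. The 2 ranges overlapped because of array 2 of mak3, at 0.943, which lay above 5 of the 6 WT arrays. By pair, the mean deposited signal was 0.859 in mak3 against 0.985 in WT for arrays 1-2. It was 0.717 in mak3 against 0.836 in WT for arrays 3-4, and 0.631 in mak3 against 0.819 in WT for arrays 5-6. The gap between the genotypes was thus widest in pair 5-6, which is also the pair in which the median of the whole mak3 array was lowest (0.420 and 0.421, against 0.605 on both WT arrays). A lower value in mak3 in all 3 pairs was seen for 28.0% of all probes before normalization, so this pattern of SBPASE is common on these arrays.

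After quantile normalization, which gives every array the same distribution of intensities, the mean SBPASE difference was smaller. It was smaller in pairs 3-4 and 5-6 and larger in pair 1-2 (-0.28, against -0.20 as deposited). The normalized log2 level of SBPASE was -0.38, -0.34 and -0.34 in the mak3 samples of pairs 1-2, 3-4 and 5-6, against -0.10, -0.28 and -0.42 in the WT samples of the same pairs. All 3 mak3 samples fell inside the range of the WT samples. The mak3 minus WT difference on the log2 scale was -0.28 for arrays 1-2, -0.07 for arrays 3-4 and 0.09 for arrays 5-6. SBPASE signal in mak3 was thus 0.824 times that of WT in pair 1-2, 0.955 times in pair 3-4 and 1.06 times in pair 5-6. The samples of mak3 had an SD of 0.02 on the log2 scale (n = 3), and 4.54% of all probes had a smaller SD in mak3. The SD of SBPASE in WT was 0.16 (n = 3). The mak3 samples spanned 0.04 on the log2 scale, whereas repeat arrays of mak3 differed by 0.27 in pair 1-2, 0.02 in pair 3-4 and 0.11 in pair 5-6.

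**Figure D1:**
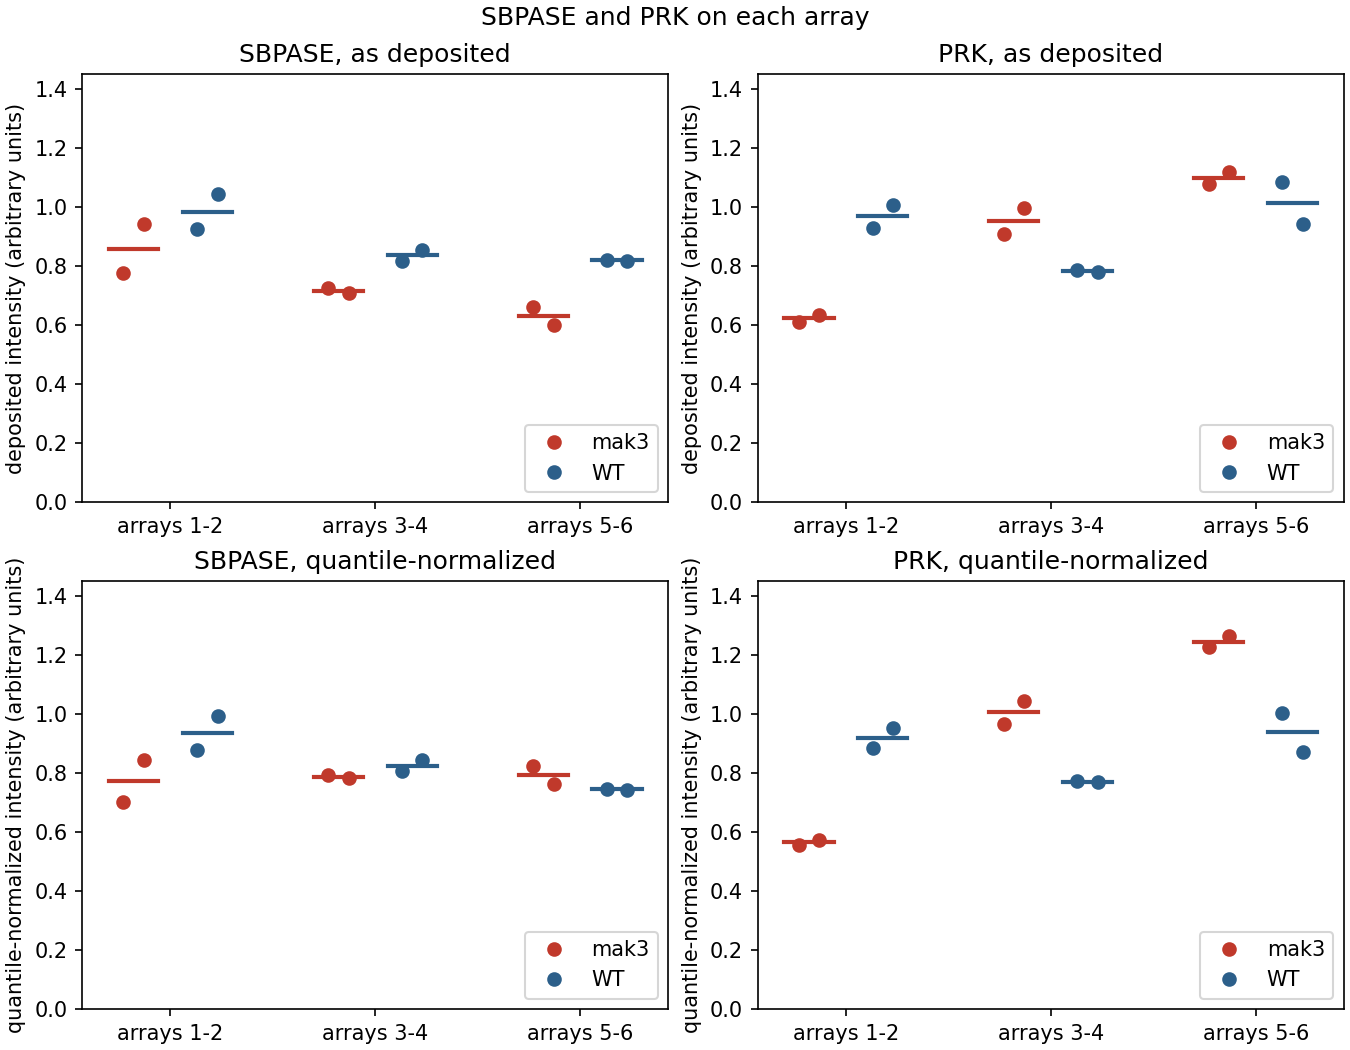
Signal of SBPASE (left) and PRK (right) on each of the 12 arrays, as deposited (top) and after quantile normalization (bottom), in arbitrary units on a linear axis from 0. Points are single arrays, bars the mean of the 2 arrays of a pair, with mak3 in red and WT in blue; PRK of mak3 is lowest on arrays 1-2 (0.556 and 0.574 after normalization) and highest on arrays 5-6 (1.23 and 1.26).

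Over the 3 samples of each genotype, SBPASE averaged -0.35 ± 0.02 in mak3 and -0.27 ± 0.16 in WT on the log2 scale (SD, n = 3 each). The difference of the means was -0.09 ± 0.10 (moderated SE, limma, adjusted p = 1 over all probes), with a 95% interval from -0.35 to 0.18. On the linear scale this interval runs from 0.784 to 1.13 times the WT level. It rests partly on the dim probes: without the probes that sat at the lower floor of the scale on 6 or more of the 12 arrays, the same difference had an SE of 0.21 and an interval from -0.57 to 0.40. No probe of the array passed limma at an adjusted p of 0.05 (0% of 3439, with or without the array pair as a block), and 3.93% of probes (135) had an unadjusted p under 0.05 without that block. The lack of a call is thus shared by all probes measured.

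PRK showed larger differences, and they ran in opposite directions. Its deposited signal on mak3 arrays ran from 0.612 to 1.12 with a median of 0.953, against 0.779 to 1.085 with a median of 0.937 on WT arrays. In pair 1-2 the mak3 arrays read 0.612 and 0.636, against 0.931 and 1.01 on the WT arrays. In pair 3-4 they read 0.908 and 0.998, against 0.787 and 0.779 on the WT arrays. In pair 5-6 they read 1.078 and 1.12, against 1.085 and 0.943 on the WT arrays. The mak3 arrays were thus the lower ones in pair 1-2 and the higher ones in pair 3-4, while in pair 5-6 the deposited values overlapped, since WT array 5 lay between the mak3 arrays.

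After normalization the PRK signal of mak3 and WT was set apart in every pair. The log2 level was -0.82, 0.01 and 0.31 in the mak3 samples of pairs 1-2, 3-4 and 5-6, against -0.12, -0.38 and -0.10 in the WT samples of the same pairs. On this scale PRK of mak3 stood at -0.70 relative to WT in pair 1-2, at 0.38 in pair 3-4 and at 0.41 in pair 5-6. PRK signal was 1.63-fold lower in mak3 in pair 1-2, 1.30-fold higher in pair 3-4 and 1.33-fold higher in pair 5-6. In each pair the gap between the genotypes exceeded the gap between repeat arrays of 1 genotype, which was at most 0.11 in mak3 and 0.20 in WT on the log2 scale. Repeat arrays that do not overlap in any pair were found for 33.8% of all probes, SBPASE among them, and therefore say little by themselves.

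Set against all probes of the same pair, the PRK difference stood in the lower tail once and in the upper part of the range in the other pairs. In pair 1-2 only 4.13% of probes had a difference further below that of PRK, while in pairs 3-4 and 5-6 PRK lay above 87.4% and 86.1% of probes. For SBPASE the corresponding shares were 18.2%, 43.7% and 61.7%, nearer to the middle of the distribution. A probe lower in mak3 in pair 1-2 and higher in the other 2 pairs, as PRK was, was found in 19.2% of all probes. The PRK difference of pair 3-4 lay 1.08 above that of pair 1-2 on the log2 scale, and that of pair 5-6 lay 1.11 above it. This change of direction was not tested, since each pair holds 1 sample of each genotype.

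PRK averaged -0.17 ± 0.59 in mak3 and -0.20 ± 0.16 in WT on the log2 scale (SD, n = 3 each). The difference was 0.03 ± 0.32 (moderated SE, limma, adjusted p = 1 over all probes), with a 95% interval from -0.80 to 0.86, or 0.576 to 1.81 times the WT level. In this fit the interval of PRK is 3.1 times as wide as that of SBPASE on the log2 scale. Without the dim probes the widths were closer, from -0.70 to 0.76 for PRK against -0.57 to 0.40 for SBPASE. The spread of PRK lay in the mak3 samples, whose SD was larger than that of 85.8% of probes, whereas the SD of PRK in WT was larger than that of 18.5% of probes in WT. Without pair 1-2 the PRK difference was 0.42 (limma adjusted p = 0.485), and without the mak3 sample of pair 1-2 alone it was 0.36 (adjusted p = 0.707). Without the mak3 sample of pair 5-6 it was -0.21 (adjusted p = 0.965), so the sign of the PRK difference rests on which samples enter.

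The rank of each probe within its array shows the same contrast without any scaling, with rank 1 as the brightest of 3439 probes. A probe's brightness depends on the probe as well as on the transcript, so ranks are compared here only for 1 probe across arrays. SBPASE ranked from 840 to 1191 on mak3 arrays, with a median of 963, and from 607 to 1072 on WT arrays, with a median of 880. PRK ranked from 385 to 1670 on mak3 arrays, with a median of 595.5, and from 597 to 1007 on WT arrays, with a median of 774. Its dimmest ranks, 1670 and 1606, were those of mak3 arrays 1 and 2, where it was barely brighter than the median probe (1.02 and 1.06 times the array median). Its brightest ranks, 385 and 409, were those of mak3 arrays 6 and 5, at 2.66 and 2.57 times the array median. Both genes were above the median of the array on all 12 arrays, and PRK of mak3 moved through the ranks further than either gene did in WT.

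The direction of the PRK difference within each pair did not depend on the scaling among the 5 compared (quantile, values as deposited, a common median, cyclic loess, and quantile with the running median of neighbouring probes taken off). Over these scalings it ran from -0.71 to -0.58 in pair 1-2. It ran from 0.28 to 0.48 in pair 3-4 and from 0.12 to 0.64 in pair 5-6. SBPASE kept a lower value in mak3 in pairs 1-2 (-0.39 to -0.20) and 3-4 (-0.22 to -0.03). In pair 5-6 SBPASE was lower in mak3 in the deposited values (-0.38, with the median of all probes at -0.44 on that scale) and higher by 0.04 to 0.15 with the other 4 scalings. Relative to the median of all probes, SBPASE in pair 5-6 was thus slightly above WT also in the deposited values.

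**Figure D2:**
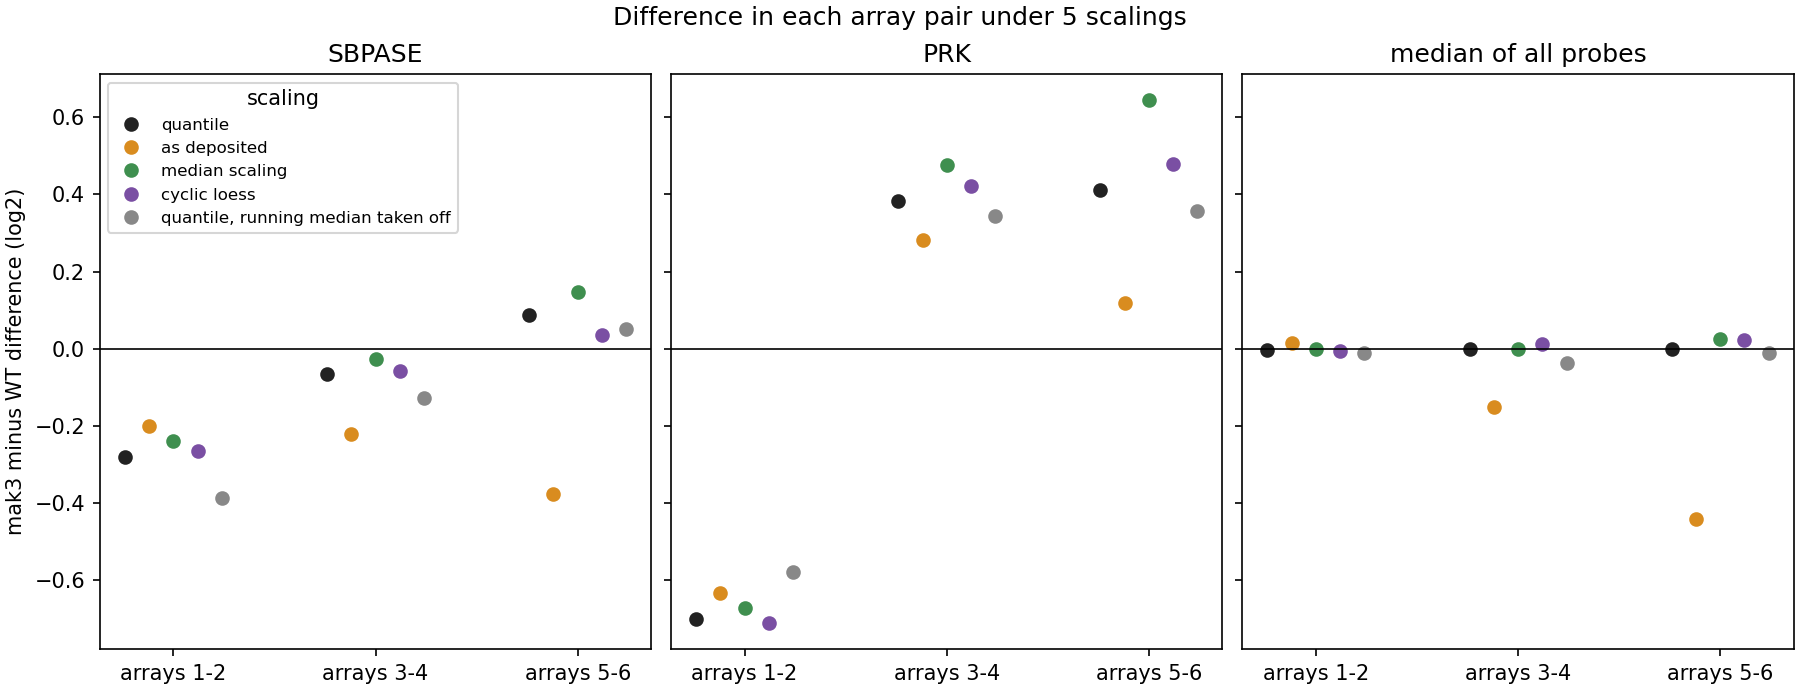
Difference between mak3 and WT (log2, mak3 minus WT) in each of the 3 array pairs for SBPASE, PRK and the median of all 3439 probes, each point being 1 of 5 scalings. PRK keeps its direction in every pair under each scaling, from -0.71 in pair 1-2 to 0.64 in pair 5-6, while SBPASE of pair 5-6 lies below 0 only for the values as deposited, in orange.

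Neighbouring probe numbers moved in the same direction as PRK but by much less. The 50 probes around PRK in the probe order had median differences of -0.14, 0.04 and 0.07 in pairs 1-2, 3-4 and 5-6. Those around SBPASE had medians of -0.11, 0.05 and 0.00. With the running median of neighbouring probes taken off, PRK stood at -0.58, 0.34 and 0.36 in pairs 1-2, 3-4 and 5-6, so most of its difference was also present relative to its neighbours.

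The ratio of the 2 signals on an array is free of the array's overall brightness, apart from what quantile normalization does to unequal intensities. SBPASE relative to PRK was 0.44, -0.35 and -0.65 in the mak3 samples of pairs 1-2, 3-4 and 5-6, and 0.02, 0.10 and -0.33 in the WT samples of these pairs, on the log2 scale. As deposited, this log2 ratio ran from -0.90 on array 6 to 0.57 on array 2 of mak3, against -0.40 on array 5 to 0.14 on array 4 of WT. The ratio was higher in mak3 in pair 1-2 (0.42) and lower in pairs 3-4 (-0.45) and 5-6 (-0.32). Its mean difference was -0.12 ± 0.35 (unpaired SE, n = 3 against 3). An exact two-sided permutation test of the unpaired samples did not set it apart from 0 (p = 0.800, where 0.1 is the smallest p it allows). An exact paired test, which flips the signs of the 3 pair differences, gave p = 0.75, where 0.25 is the smallest p it allows. The sign of the difference was thus not the same in the 3 pairs, and the pairs were not tested singly.

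**Figure D3:**
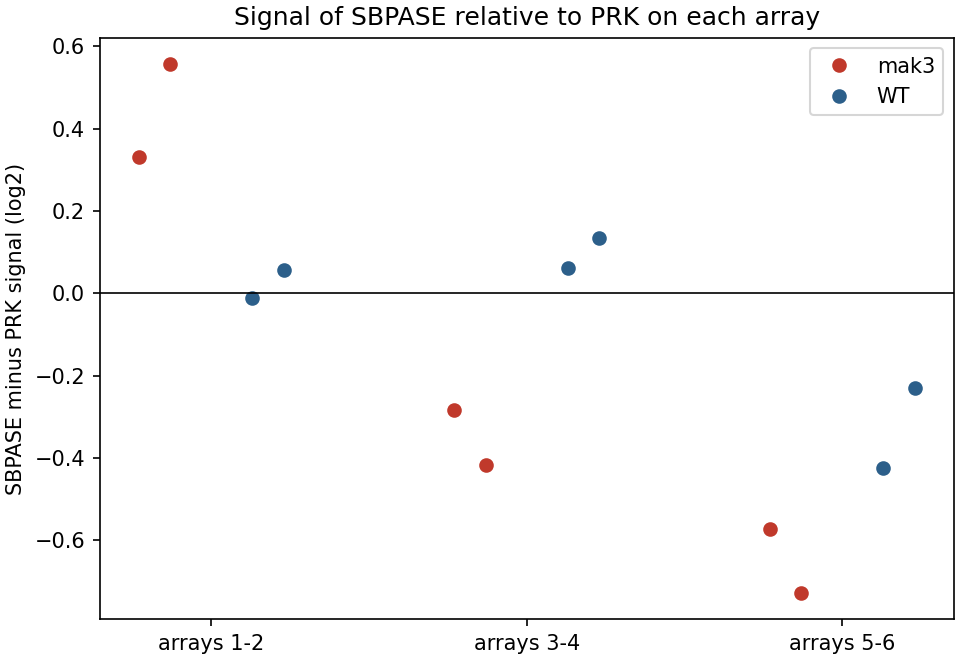
Signal of SBPASE relative to that of PRK (log2, quantile-normalized) on each array, with mak3 in red and WT in blue. The mak3 arrays span from -0.73 to 0.56 and the WT arrays from -0.42 to 0.14, and mak3 lies above WT on arrays 1-2 and below WT on the others.

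Across the 6 samples, the levels of SBPASE and PRK hardly went together (Pearson's r = 0.0979, given as a description over samples that share arrays and scaling). Among 641 other probes that name 1 gene and lie above the floor on all arrays, the levels most like those of SBPASE were those of AT5G58410 (r = 0.934), AT1G76220 (0.890) and AT3G25680 (0.857). Those most like PRK were AT5G17280 (r = 0.938), AT2G04790 (0.920) and AT1G09200 (0.885). All 3 genes most like PRK were lower in mak3 in pair 1-2, at -0.41, -0.28 and -0.33. They were higher in pairs 3-4 and 5-6, at 0.09 to 0.60. These genes were picked for likeness to PRK over the same samples, so the shared signs are no separate result. The same signs were found in 19.2% of all probes. A choice of the best of 641 over 6 samples gives high values of r readily, and nothing further is read from them.

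The other genes of the pathway with a counted probe were few. A probe naming several genes counted only where all of them belonged to the list, and 1877 of the 3439 probes were not named here. Of 21 listed genes for Calvin cycle enzymes, SBPASE and PRK alone had a probe of their own here. Of 18 listed genes for the regulation of the cycle and the assembly of Rubisco, its CO2-fixing enzyme, 5 probes were counted, 3 of them naming 1 gene and 2 naming both AT5G28500 and AT3G04550. The 2 probes that name Rubisco activase (RCA) also name another gene and were not counted. None of the 5 counted probes passed the test in limma, 1 was higher and 4 were lower in mak3, and their median difference was -0.09, against 0.00 for all probes, of which 53.3% were lower.

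A pair of reductases of the chloroplast thioredoxin system did not share 1 direction. Apart from these reductases, no gene of the thioredoxin system was among the counted probes. AT2G04700, the catalytic subunit of ferredoxin-thioredoxin reductase (FTRB), which passes electrons from the light reactions to the thioredoxins, was at -0.50 in pair 1-2, -0.07 in pair 3-4 and 0.29 in pair 5-6. Its mean difference was -0.09 ± 0.31 (moderated SE, n = 3 against 3). NTRC (AT2G41680), a thioredoxin reductase of the chloroplast that draws on NADPH, was at 0.70 in pair 1-2, -0.29 in pair 3-4 and -0.18 in pair 5-6, with a mean difference of 0.08 ± 0.22 (moderated SE, n = 3 against 3). In pair 1-2, where PRK of mak3 was lowest, FTRB was thus below WT and NTRC above it, while both were below WT in pair 3-4. Both mean differences were smaller than their SE, and whether the reductases differed from each other was not tested.

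The 3 probes for Rubisco assembly factors had mean differences below 0 in mak3, and none passed the test. AT3G47650, known as BSD2, a chaperone that holds the large subunit of Rubisco during assembly, was lower in all 3 pairs (-0.11, -0.33 and -0.12), as were 20.2% of all probes. Its level averaged 0.66 ± 0.23 in mak3 and 0.84 ± 0.20 in WT (SD, n = 3 each). The difference of -0.19 ± 0.17 did not pass limma (adjusted p = 1, and 0.390 with the array pair as a block). The 2 probes naming the genes of Rubisco accumulation factor 1, AT5G28500 and AT3G04550, were at -0.41 and -0.42 in pair 1-2, at -0.10 and 0.10 in pair 3-4, and at 0.01 and 0.15 in pair 5-6. Although they name the same genes, their levels did not go together across the 6 samples (r = -0.449). For SBPASE and PRK no further probe was set beside the 1 used.

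Genes that surround the cycle in carbon and light metabolism gave no call either. ATSPS4F (AT4G10120), a sucrose phosphate synthase, which leads to sucrose, was lower in mak3 in all 3 pairs (-0.04, -0.06 and -0.21). The same was true of 20.2% of all probes. With the array pair as a block its SE was 0.06 (limma adjusted p = 0.478). Without that block its mean difference was -0.10 ± 0.30 (moderated SE, n = 3 against 3). AT1G12230, a transaldolase, was at -0.88 ± 0.52, but its deposited signal was at most 0.134 on mak3 arrays and at 0 on 2 of the 6 (arrays 1 and 2), against 0.0966 to 0.244 on WT arrays, so its difference in pair 1-2 (-2.43) was set by the floor. Of 5 probes for the light reactions, 2 were higher and 3 lower in mak3, with a median of -0.07 and none passing the test. LHB1B2 (AT2G34420), an antenna protein of photosystem II, and PSAN (AT5G64040), a subunit of photosystem I, were lower in pair 1-2 (-0.69 and -0.77). PRK was lower in that pair too. LHB1B2 and PSAN stayed lower in pairs 3-4 (-0.14 and -0.04) and 5-6 (-0.25 and -0.46), where PRK was higher. A lower value in all 3 pairs was found in 20.2% of all probes, and both genes were picked for the smallest p of their list. PSB27 (AT1G03600), an assembly factor of photosystem II, was at -0.10, 0.65 and 0.54 in pairs 1-2, 3-4 and 5-6. PSBY (AT1G67740) was at 0.33, -0.18 and 0.17 in these pairs and PSBW (AT2G30570) at 0.23, -0.07 and -0.38, both of them subunits of photosystem II. Of the 5 probes, PSB27 alone had the signs of PRK, as had 19.2% of all probes. Whether PRK differed from these genes was not tested.

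**Figure D4:**
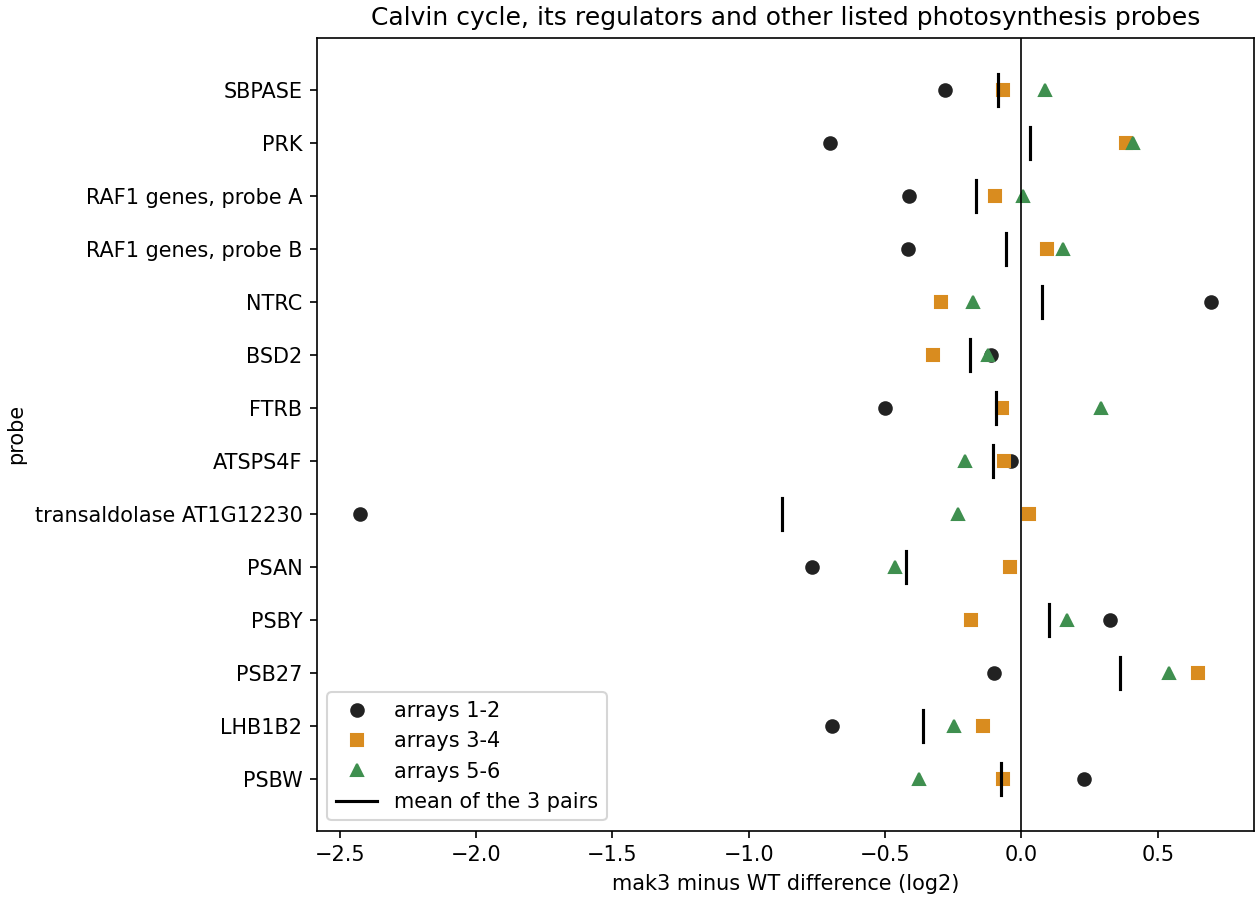
Difference between mak3 and WT (log2, mak3 minus WT, quantile-normalized) of SBPASE, PRK and the other 12 listed probes, with 1 symbol for each array pair and a bar for the mean of the 3 pairs. PRK spreads from -0.70 to 0.41 and SBPASE from -0.28 to 0.09; the pair of probes for Rubisco accumulation factor 1 is marked A and B, and the point at -2.43 belongs to the dim transaldolase probe.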

How the data were processed

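The data are the deposited intensities of 12 arrays, 1 value for each of 3439 probes, linear and never negative. The sources used here do not say how the authors scanned or scaled the deposited intensities, so scale and centring are unknown. Background signals were not analysed here. The labels gave each array's genotype and number, and the platform annotation its probe names: 692 probes with 1 gene, 870 with several, and 1877 not named here. No genome build is named, so no coordinates are given.

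Quantile normalization used limma 3.58.1 (R 4.3.3). Values under the 1st percentile of positive values (0.0412) were set to it, and log2 was taken. Arrays 1-2, 3-4 and 5-6 of a genotype were averaged. The fit (lmFit and eBayes, two-sided, Benjamini-Hochberg adjustment) ran over all probes at a threshold of 0.05. The fit was tested on simulated data. The mak3 and WT samples of 1 pair deviated together from their genotype means (r = 0.602, 0.557 and 0.739), which judged by the data makes them matched samples, and a fit with the pair as a block was run beside the main one.

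The rule for named genes took SBPASE and PRK, every probe of the lists for the Calvin cycle and its regulation that names 1 gene, up to 2 examples of each neighbouring list (the smallest p), and for each member the 3 most alike genes. PSB27, PSBY and PSBW were named beside it after their values were seen, and so were the probes naming both genes of Rubisco accumulation factor 1. Lists for photorespiration, root and seed markers had 0 probes counted here. The members and lists were chosen with earlier results of these data known. Alternatives covered scaling, floor, dim probes, array averaging, the pair block, array weights, the running median over 51 probes and left-out arrays, samples and pairs.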

Additional observations from a re-analysis of the deposited data

How the results depend on the processing

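The call for SBPASE, PRK and all other probes was the same, with 0 probes past the threshold, under every alternative but 1. With all 12 arrays entered singly, so that every sample counted 2 times, 24 probes passed in limma, neither SBPASE (adjusted p = 0.663) nor PRK (adjusted p = 0.999) among them. The SBPASE difference lay between -0.27 and -0.04 over 10 settings and between -0.17 and 0.01 when arrays, samples or pairs were left out. Of these settings, leaving out pair 1-2 alone put it above 0 (0.011). Without the WT sample of pair 1-2 the SBPASE difference was -0.002. The PRK difference lay between -0.08 and 0.31 over 10 settings and between -0.21 and 0.42 with arrays, samples or pairs left out. It fell below 0 without pair 3-4, pair 5-6, the mak3 sample of either, the WT sample of pair 3-4 or WT array 6. It was -0.078 without normalization between arrays, a setting in which all probes had a median of -0.19. It was 0.31 with array weights, and the cause was not tested. The ratio of SBPASE to PRK signal differed by -0.20 to -0.11 over 7 settings and by -0.44 to 0.12 when arrays, samples or pairs were omitted, and lay above 0 without the mak3 sample of pair 5-6 (0.12) or pair 3-4 (0.055). The median of both genes lay between -0.17 and 0.13 over 10 settings and between -0.17 and 0.22 with left-out arrays, samples or pairs. With the array pair as a replicate block, SBPASE was at -0.09 ± 0.10 (limma adjusted p = 0.695) and PRK at 0.03 ± 0.30 (0.995), and no call changed. Background signals were not used, and the number of arrays, averaged to 3 samples of each genotype, limits the precision.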
